A study of Homo sapiens with 6 samples.

Results

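The genes described here encode the MHC class II molecules, their peptide-loading helpers and CD74, measured in SN12C cells, a human renal carcinoma cell line, with and without knockdown of YAP and TAZ. Members were the 10 genes HLA-DRA, HLA-DRB1, HLA-DRB3, HLA-DRB4, HLA-DRB5, HLA-DPA1, HLA-DMA, HLA-DMB, HLA-DOA and CD74. All of their Illumina bead-array probes that were detected on at least 3 of the 6 arrays, with a detection p-value under 0.05, were taken. This gave 13 probes of 20348 that passed the filter, from 47315 on the array, and 10 genes of 11646 with a named kept probe. The detection p-values chose the probes, and each of the 10 genes had at least 1. The values just outside the limit cannot be tied to these genes, because the probe annotation used here covers only probes that passed it.

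The study asked, by its title, how inhibition of YAP and TAZ alters metabolism and signalling in tumor cells lacking NF2. Control cells carried the pTripz vector together with GFP-luc, and knockdown cells carried pTripz YAPsh, pTripz TAZsh and GFP-luc. Both received doxycycline for at least 3 days, which switches on the hairpin RNAs in the knockdown cells, and both were kept without serum for the last 24 hours. The series calls the 3 arrays of each arm technical repeats of 1 cell line, so p-values measure the spread between these arrays and not between cultures.

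MHC class II molecules present peptides from the endosomal pathway to CD4+ T cells. Each is a pair of an alpha and a beta chain, and CD74, the invariant chain, escorts the pair to endosomes, where cathepsins degrade it and HLA-DM exchanges its last fragment for peptide. Professional antigen-presenting cells make these molecules constitutively, whereas epithelial cells, including those of the renal tubule, are known to make them mainly after exposure to interferon-gamma. Transcription of the class II genes and of CD74 depends on promoter elements called the X and Y boxes. The X box is bound by the RFX complex and the Y box by NF-Y, and the co-activator CIITA is recruited to both.

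The promoters are shown because class II genes are classically grouped by these elements, and 7 of the 10 genes had an entry in the RefSeq promoter table (GRCh38.p14). HLA-DRA, HLA-DRB3 and HLA-DRB4 had none. In each window of 62 bases, capitals mark X-box-like letters (AGNAACNGA) or Y-box letters (ATTGG, or CCAAT where they lie on the other strand), searched on both strands of the 250 bases before and 50 bases after the start site. All 7 genes lie on the minus strand, and the windows are written 5′ to 3′ on that strand.
HLA-DRB1, chr6:32589878-32589939: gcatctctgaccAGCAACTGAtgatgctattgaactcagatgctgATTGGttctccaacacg
HLA-DRB5, chr6:32530361-32530422: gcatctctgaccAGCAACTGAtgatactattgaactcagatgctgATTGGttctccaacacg
HLA-DPA1, chr6:33073699-33073760: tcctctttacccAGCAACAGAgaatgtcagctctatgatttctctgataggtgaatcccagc
HLA-DMA, chr6:32953160-32953221: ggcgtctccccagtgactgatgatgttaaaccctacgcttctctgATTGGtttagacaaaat
HLA-DMB, chr6:32941067-32941128: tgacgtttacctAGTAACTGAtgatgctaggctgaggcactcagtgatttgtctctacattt
HLA-DOA, chr6:33009643-33009704: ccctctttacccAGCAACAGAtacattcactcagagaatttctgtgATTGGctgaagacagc
CD74, chr5:150412947-150413008: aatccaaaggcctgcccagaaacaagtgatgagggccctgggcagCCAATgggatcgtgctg

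X-box-like letters followed by Y-box letters on the gene's strand, with 25 to 40 bases from start to start, were present in HLA-DRB1, HLA-DRB5 and HLA-DOA. The distance was 33 bases in HLA-DRB1 and in HLA-DRB5 and 34 bases in HLA-DOA. Of 35116 promoters in the table, 13 (0.0370%) held this pair. X-box-like letters were in 4.48% and Y-box letters in 34.6%, with or without the other. HLA-DPA1 and HLA-DMB held the X-box-like letters without the paired Y-box letters, and HLA-DMA and CD74 held only Y-box letters. HLA-DPA1 had a further start site in the table, whose promoter held neither. A missing match says only that these exact letters are not in the window.

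**Figure D1:**
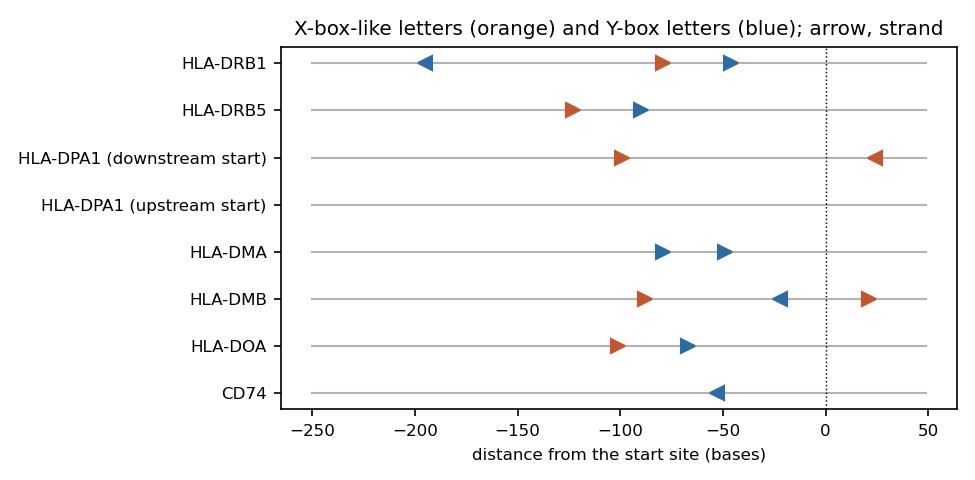
Position of X-box-like letters (orange) and Y-box letters (blue) in each promoter, against the distance from the start site in bases. The arrow gives the strand of the match relative to the gene, and grey lines span the 300 bases searched; HLA-DRB1, HLA-DRB5 and HLA-DOA hold an orange mark followed by a blue one on the gene's strand.

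Of the 13 probes, 10 were lower in knockdown cells at an adjusted p under 0.05, 0 were higher and 3 were not called. These calls come from limma fitted on the 20348 kept probes with Benjamini-Hochberg adjustment over all of them, and values are background-corrected, quantile-normalized log2 intensities. A large share of probes differed between the arms: 32.3% of all kept probes were called, 16.5% lower and 15.8% higher in knockdown cells. These were 6576 probes, and 1555 were called with median scaling in place of quantile normalization. Effects of knockdown and of other differences between the arms cannot be told apart in this design. At least 1 log2 unit lower were 9 of the 13 probes, against 3.96% of all kept probes. The median log2 change of the 13 probes was -1.40, beside 0.02 over all kept probes. These counts describe genes picked with earlier results of the same arrays known and are no independent support for a direction. HLA-DRB1 and HLA-DRB5 were detected on control arrays only, so they passed the filter only through that arm and had to differ. Of the 8 probes detected on all 6 arrays, 6 were called lower. A fit of only the 15847 probes detected on all 6 arrays called 2989 lower, these 6 among them.

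**Figure D2:**
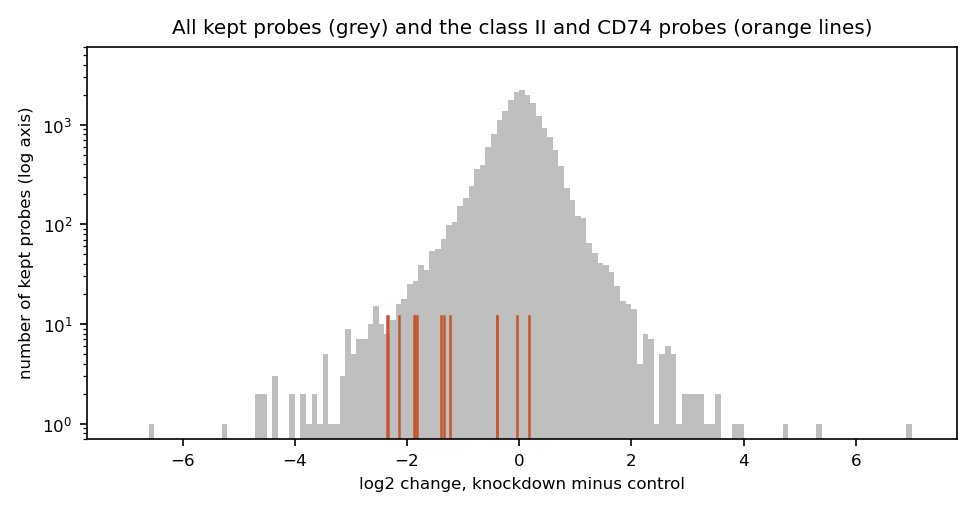
Histogram of the log2 change (knockdown minus control) of the 20348 kept probes, with the number of probes on a log axis. Orange lines mark the 13 class II and CD74 probes, which run from -2.35 to 0.17.

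HLA-DRA, the nearly non-polymorphic alpha chain of HLA-DR, was about 5-fold lower in knockdown cells by its brightest probe. That probe (ILMN_2157441) gave log2 intensities of 7.88, 8.17 and 8.24 in control cells against 5.51, 6.01 and 5.79 in knockdown cells. Every knockdown array lay more than 1 log2 unit below every control array. The log2 change was -2.33 ± 0.16 (SE, n = 3 arrays per arm), a 5.03-fold difference (adjusted p = 2.34e-05 in limma). The other HLA-DRA probe (ILMN_1689655) gave 7.22, 7.43 and 7.56 against 5.88, 6.36 and 5.95, a log2 change of -1.34 ± 0.16 and an adjusted p of 0.000396 in limma. The arms of both probes were apart, and all 12 values came from detected probes. The 2 probes differed in the size of the fall, 5.03-fold and 2.53-fold, and no test of that difference was made.

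HLA-DRB genes encode the beta chains that pair with HLA-DRA. HLA-DRB1 is carried by all haplotypes and HLA-DRB3, HLA-DRB4 and HLA-DRB5 by some, and the genes are so alike that a probe may read more than 1 of them. The 5 probes annotated to these 4 genes are therefore described as 1 group, in which 4 were called lower. The HLA-DRB1 probe gave 6.57, 6.72 and 6.98 on control arrays and was undetected in knockdown cells, at 4.41, 4.47 and 4.33. On this scale, normexp with an offset of 16, the controls were at least 4.67-fold brighter, a value that replaces each undetected value by the lowest log2 intensity of a detected probe on that array (adjusted p = 8.05e-06 in limma). It is no bound under other background settings, where the fitted fall was smaller. The HLA-DRB5 probe showed the same layout, with 6.05, 6.12 and 6.27 in controls and 4.27, 4.22 and 4.32 in knockdown cells, again undetected there. Here the controls were at least 3.06-fold brighter on the same scale, with the same limit (adjusted p = 1.03e-05 in limma). In neither gene did the arms overlap, but both probes passed the filter only through the control arrays and so had to differ. Their calls and p-values are therefore descriptions.

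HLA-DRB4 was represented by a pair of probes that differed from each other. The brighter probe (ILMN_1752592) gave 6.34, 6.48 and 6.56 against 4.83, 5.25 and 5.10, with no overlap, and was 2.64-fold lower in knockdown cells (log2 change -1.40 ± 0.14, adjusted p = 0.00015 in limma). The other (ILMN_1679617) gave 5.14, 4.96 and 4.86 against 5.08, 5.10 and 4.63. Its arms overlapped, and the log2 change of -0.05 ± 0.15 was not called (adjusted p = 0.851 in limma). It turned positive without control array 1 (0.03) and without knockdown array 3 (0.11).

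The HLA-DRB3 probe, with 7.61, 7.39 and 7.71 in controls against 7.29, 7.04 and 7.17, fell by 0.40 ± 0.13 on the log2 scale (adjusted p = 0.0423 in limma). The highest knockdown array lay just below the lowest control array. This call ended with median scaling in place of quantile normalization (adjusted p = 0.474), with no detection filter (0.0579), without control array 1 (0.0949) or 3 (0.155) and without knockdown array 2 (0.136) or 3 (0.101). One further probe read HLA-DRB6, a pseudogene of the same group that is not a member. It gave 5.82, 5.92 and 6.19 against 4.82, 4.60 and 4.37, a log2 change of -1.38 ± 0.15 (adjusted p = 0.000298 in limma). Its arms did not overlap either, and its fall of 2.60-fold was 1.35-fold without background correction.

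HLA-DPA1, the alpha chain of HLA-DP, gave 7.40, 7.51 and 7.48 in controls against 4.87, 5.65 and 5.42 after knockdown. The control values lay within 0.11 of each other and the knockdown values spread more widely, with array 1 lowest. The log2 change was -2.15 ± 0.19 (adjusted p = 8.15e-05 in limma), a 4.43-fold difference. HLA-DPB1, its beta-chain partner, and the HLA-DQ genes had no kept probe named in the annotation and were not analysed here.

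CD74, the invariant chain, was lower on both of its probes. The brighter one (ILMN_1736567) gave 7.19, 7.37 and 7.29 against 4.95, 5.91 and 5.53, and the other (ILMN_2379644) gave 6.19, 6.53 and 6.55 against 4.50, 4.64 and 4.57. In both, the arms were well separated, and knockdown array 2 was the highest of its arm. The changes on this scale were 3.53-fold (log2 -1.82 ± 0.22, adjusted p = 0.00045 in limma) and 3.61-fold (log2 -1.85 ± 0.13, adjusted p = 2.7e-05 in limma). The dimmer probe was near background in knockdown cells, where 2 of 3 arrays detected it, so the size of its fall is limited by background. Without background correction the falls were 1.82-fold and 1.56-fold.

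HLA-DMA and HLA-DMB encode the chains of HLA-DM, the peptide exchange factor, and their probes gave different results. HLA-DMB gave 5.58, 6.13 and 5.97 in controls against 4.60, 4.84 and 4.54 in knockdown cells, where 2 of 3 arrays detected it. Its arms were apart, with a log2 change of -1.23 ± 0.16 (2.35-fold, adjusted p = 0.000725 in limma). HLA-DMA gave 8.30, 8.45 and 8.65 against 7.69, 8.37 and 8.15, so the highest knockdown array lay above the lowest control array. Its log2 change of -0.40 ± 0.18 was not called (adjusted p = 0.136 in limma), and was called with the replicate number as a block (0.0394). Whether HLA-DMA and HLA-DMB changed by different amounts was not tested.

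HLA-DOA, a chain of HLA-DO, which modulates HLA-DM, was near background in both arms. It gave 4.56, 4.56 and 4.27 against 4.42, 4.56 and 4.91, and 2 arrays of each arm detected it. The arms overlapped, and the log2 change of 0.17 ± 0.16 was not called (adjusted p = 0.465 in limma). It was the only member probe whose fitted change was positive.

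**Figure D3:**
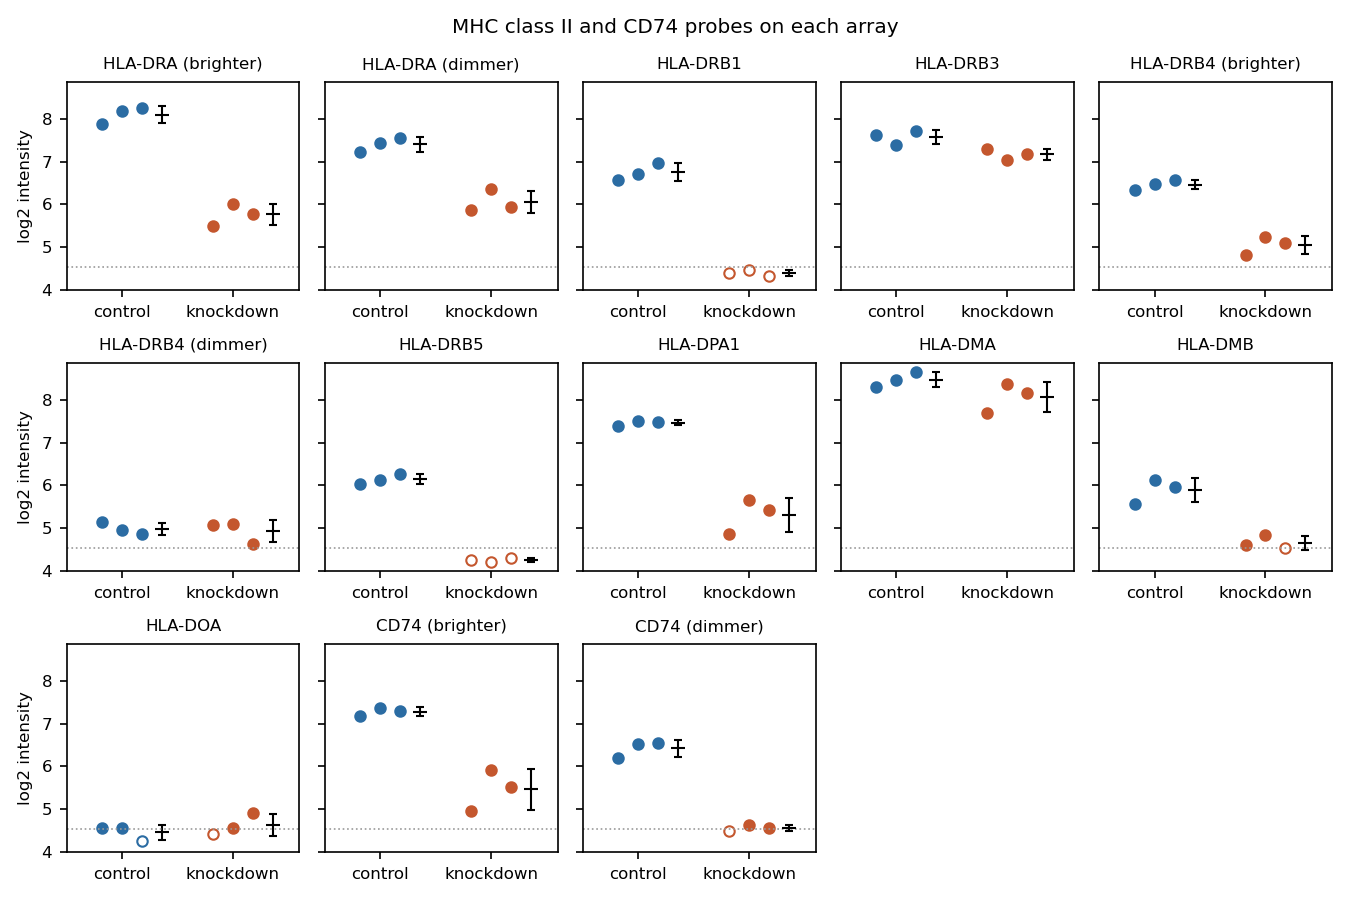
Log2 intensity of each class II and CD74 probe on the 3 control arrays (blue) and 3 knockdown arrays (orange), in replicate order. Filled circles were detected and open circles were not; black bars are mean ± SD, and the dotted line is the mean over arrays of the lowest log2 intensity of a detected probe. The arms are apart in 10 of the 13 panels and overlap for the dimmer HLA-DRB4 probe, HLA-DMA and HLA-DOA.

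Arrays within an arm were not alike in these genes. Among the 10 probes called lower, knockdown array 2 was the highest of its arm in 8 and knockdown array 1 the lowest in 6. Control array 1 was the lowest of the controls in 9. No such counts over all kept probes stand beside these, so nothing particular to the family is read from them. The arms did not overlap, with lower values in knockdown cells, in 10 of the 13 probes, HLA-DRB1 and HLA-DRB5 among them, and in 22.8% of all kept probes (45.5% in either direction). The 10 are the called probes, for which separate arms are nearly implied, so nothing is read from this count.

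The size of the fall varied with the background correction. Raw intensities of the brightest HLA-DRA probe were 238.4, 501.7 and 327.6 in controls and 133.9, 129.4 and 118.3 in knockdown cells, on arrays with median raw intensities of 87.6 to 102.4. Without background correction, with the same offset, the fall in this probe was 2.52-fold in place of 5.03-fold, and in the other HLA-DRA probe 1.65-fold in place of 2.53-fold. HLA-DPA1 then fell 2.05-fold, the CD74 probes 1.82-fold and 1.56-fold, the brighter HLA-DRB4 probe 1.44-fold and HLA-DMB 1.30-fold. HLA-DRB1 and HLA-DRB5 were 1.81-fold and 1.53-fold lower by the fitted values. The same 10 probes were lower at the threshold under this setting. An offset of 50 in place of 16 gave 3.47-fold for HLA-DRA, 2.83-fold for HLA-DPA1 and 2.40-fold and 2.08-fold for CD74. HLA-DRB1 and HLA-DRB5 then fell 2.58-fold and 1.97-fold.

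**Figure D4:**
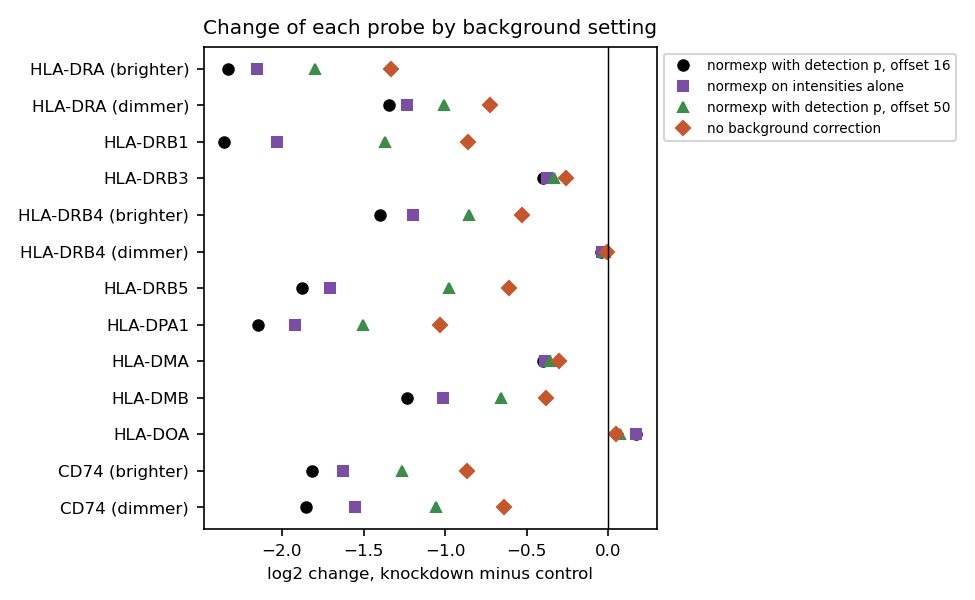
Log2 change (knockdown minus control) of each probe under 4 background settings: normexp with detection p-values and an offset of 16 (black), normexp on intensities alone (purple), an offset of 50 (green) and no correction (orange). Changes move toward 0 with less correction, and the 10 called probes stay below 0 under each.

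None of the measured regulators of class II transcription was called lower. Of 14 listed genes, 13 had a kept probe; 0 were lower, 5 higher and 8 not called, beside 18.0% lower and 18.9% higher, 36.9% in all, among all genes represented by their brightest probe. The median change of the list was 0.23, beside 0.03 over all genes. CIITA, the co-activator that sets class II expression, had no kept probe named in the annotation, so its RNA was not analysed here. RFX5, the DNA-binding subunit of the RFX complex, gave 9.47, 9.55 and 9.36 in controls against 9.84, 9.69 and 9.86 in knockdown cells. Its knockdown values lay above all controls, with a log2 change of 0.34 ± 0.11 (adjusted p = 0.0485 in limma), while a second RFX5 probe changed by 0.12 (0.533). RFXAP, another subunit, gave 5.29, 5.79 and 5.66 against 5.50, 5.58 and 5.33, with overlapping arms and a change of -0.11 ± 0.15 (0.627). The 3 probes of RFXANK, the third subunit, gave -0.18, -0.11 and -0.04, none called.

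Of the NF-Y subunits, NFYC rose by 0.35 (adjusted p = 0.0358 in limma), and NFYA and NFYB gave 0.21 and 0.23 without a call. The acetyltransferases and co-activators CREBBP, EP300 and KAT2B rose, by 0.79, 0.54 and 0.49 (adjusted p = 0.0112, 0.00399 and 0.0061 in limma). CREB1, a further X-box-region factor, gave 0.42 ± 0.48 on its brightest probe (adjusted p = 0.556 in limma), and 0.0164 with the replicate block. On that probe array 1 was the highest of each arm. Its other probes gave 0.44, 0.05, -0.15 and 0.30, none called in the reported fit. With median scaling 0 regulators were called, and without control array 1 PRDM1, a repressor of CIITA transcription, was called lower. RFX5 missed the threshold without any single array of the 6 (adjusted p from 0.0605 to 0.183), and NFYC without any array other than knockdown array 1 (0.0655 to 0.118).

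The other RFX family factors bind related DNA motifs and are not subunits of the class II complex. Of 7 listed, 5 had a kept probe, 0 lower, 3 higher and 2 not called by the brightest probe. All genes together gave 18.0% lower and 18.9% higher. RFX7 and RFX1 rose, by 0.63 and 0.53 on the log2 scale (adjusted p = 0.00646 and 0.0121 in limma). RFX3, the remaining one counted higher, was detected on knockdown arrays only and so had to differ to pass the filter. It was at least 1.33-fold brighter in knockdown cells on the normexp scale with an offset of 16. RFX2 gave -0.35 (0.0846, and 0.0360 with the replicate block) on one probe and -0.44 (0.0489) on the other, and RFX4 gave -0.15. RFX6 and RFX8 had no kept probe named. With median scaling none of these was called. The RFX2 call on the other probe ended under each alternative background setting (0.0604 to 0.133), with no detection filter (0.0953) and without control array 1 or 3 or knockdown array 2 or 3 (0.122 to 0.148).

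**Figure D5:**
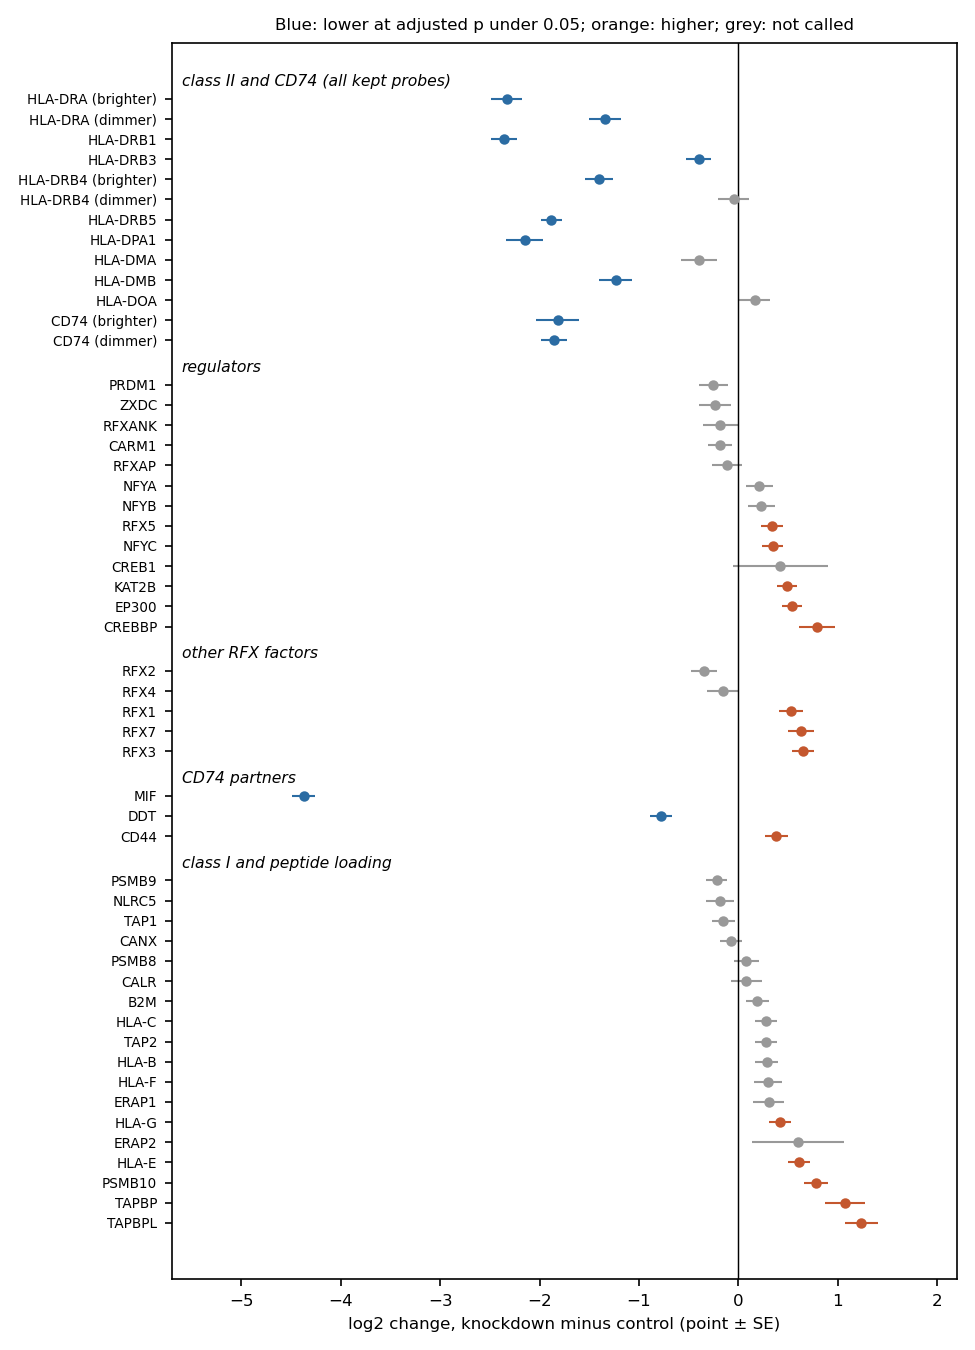
Log2 change with its standard error for each class II and CD74 probe and for the brightest probe of each gene among regulators, other RFX factors, CD74 partners and class I genes. Blue points were called lower, orange higher and grey neither; RFX3 was undetected in controls, so its point is a fitted value. Blue points lie in the class II and CD74 group and among the CD74 partners.

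Interferon-gamma acts through its receptor and JAK kinases to raise IRF1 and, through CIITA, the class II genes. Of 12 listed pathway genes 10 had a kept probe, with a median change of 0.18. Called lower was 1 and higher were 3, beside 18.0% lower and 18.9% higher over all genes, and 6 were not called. The feedback inhibitor SOCS1 rose by 1.33 ± 0.19 (adjusted p = 0.00108 in limma), from 4.48, 5.15 and 5.16 to 6.12, 6.27 and 6.38. IRF1 rose by 0.64 (0.00643) and PIAS1, a SUMO ligase, by 0.39 (0.022), and the phosphatase gene PTPN2 fell by 0.50 (0.00935). The receptor genes IFNGR1 and IFNGR2 gave -0.08 and -0.03 and the kinase gene JAK1 -0.35, none called. JAK2 had no kept probe named. PIAS1 was not called when control array 3 (0.0985), knockdown array 2 (0.0606) or knockdown array 3 (0.0599) was left out, and the SOCS1 rise was 1.38-fold in place of 2.51-fold without background correction.

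Of 14 interferon-gamma induced genes, 9 had a kept probe: 1 was lower, 3 higher and 5 not called, with a median change of -0.15. Beside these stand 18.0% lower and 18.9% higher over all genes. The guanylate-binding protein genes GBP2 and GBP4 rose, by 1.44 and 1.16 (adjusted p = 0.000141 and 0.00177 in limma). BATF2, also counted higher, was detected on knockdown arrays only and so had to differ to pass the filter. It was at least 1.22-fold brighter there on the normexp scale with an offset of 16, and its call (adjusted p = 0.0432 in limma) is a description. WARS1, a tryptophan tRNA synthetase, fell by 0.48 (0.0276), and GBP1 gave -0.41 without a call. The other WARS1 probe gave -0.61 (adjusted p = 0.00667 in limma). By its brightest probe WARS1 missed the threshold without control array 2 (0.0688) or 3 (0.102) and without knockdown array 1 (0.059) or 3 (0.0615). BATF2 missed it without any 1 control array (0.0556 to 0.129) and without background correction (0.115). With median scaling 1 pathway gene and 2 induced genes were called. GBP4 rose 1.39-fold in place of 2.24-fold without background correction.

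Genes for the processing of CD74 and antigen were called in both directions, as were genes in general. Of 16 listed genes 13 had a kept probe, with 3 lower, 4 higher and 6 not called, and the median change was -0.10. Over all genes 18.0% were lower and 18.9% higher, so nothing particular to this list is read from the counts. CTSV, the lysosomal cathepsin of thymic epithelium, gave 7.37, 7.77 and 7.56 in controls and 5.31, 5.73 and 5.59 in knockdown cells, a 4.08-fold fall (adjusted p = 3.88e-05 in limma) that measured 2.05-fold without background correction. CTSH, an aminopeptidase, fell by 1.46 (3.04e-05), and SPPL2A, the protease that cuts the last CD74 fragment in the membrane, by 0.49 (0.0264). CTSF, a cathepsin known to process the invariant chain in macrophages, gave 6.45, 6.40 and 6.66 against 9.20, 8.85 and 9.18, a 5.97-fold rise (6.29e-06), and 3.50-fold without background correction. CTSB, CTSD and CTSL rose by 1.02, 0.97 and 0.76 (adjusted p = 0.000304, 0.00205 and 0.00389 in limma). CTSS, the main invariant-chain protease of antigen-presenting cells, had no kept probe named. SPPL2A missed the threshold without control array 2 (0.0818) or 3 (0.0766) and without knockdown array 2 (0.0751) or 3 (0.0921). The fall of CTSH was 1.43-fold in place of 2.75-fold without background correction. With median scaling 3 of these genes were called, 2 lower.

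CD74 at the cell surface is also the receptor of the cytokine MIF. Of 6 listed partners 3 had a kept probe, 2 lower and 1 higher, with a median change of -0.78. The shares of all genes were 18.0% lower and 18.9% higher. MIF gave 9.58, 9.42 and 9.72 in controls and 5.12, 5.26 and 5.23 in knockdown cells, far outside the spread of either arm. The log2 change of -4.37 ± 0.12 (adjusted p = 2.7e-07 in limma) is 20.7-fold, and 6.75-fold without background correction. DDT, the MIF homologue, fell by 0.78 ± 0.11 (adjusted p = 0.00104 in limma), and CD44, the co-receptor, rose by 0.38 ± 0.11 (0.03). Its other probes gave 0.82 (0.0036) and 0.26 (0.65). With median scaling only MIF of the 3 was called, and the CD44 rise missed the threshold without any single array other than knockdown array 3.

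None of the measured MHC class I genes, which share part of this regulation, was called lower by its brightest probe. Of 20 listed genes for class I chains and peptide loading, 18 had a kept probe, with 0 lower, 5 higher and 13 not called, beside 18.0% lower and 18.9% higher over all genes, and a median change of 0.28. TAPBPL, TAPBP and PSMB10, which serve peptide editing and the immunoproteasome, rose by 1.24, 1.07 and 0.78, and HLA-E and HLA-G by 0.61 and 0.42 (adjusted p = 0.000686, 0.00437, 0.00157, 0.00295 and 0.0224 in limma). HLA-B and HLA-C each gave 0.28 and B2M, the light chain, 0.19, none called by its brightest probe. The other B2M probe was called higher (0.36, adjusted p = 0.049 in limma), as were other probes of HLA-F (0.50, 0.0216) and ERAP2 (0.61, 0.0166), and over all 30 class I probes 10 were called higher and 0 lower. NLRC5, the class I counterpart of CIITA, gave -0.19 without a call. The count was 9 without background correction, where PSMB9 was called lower, 8 with an offset of 50 and 1 with median scaling. HLA-G was not called when control array 1 (0.063), knockdown array 1 (0.0513) or knockdown array 3 (0.0698) was left out, and TAPBPL rose 1.43-fold in place of 2.36-fold without background correction.

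Neighbouring genes in or next to the class II region were called in both directions, as were genes in general. Of 23 listed, 20 had a kept probe, 5 lower, 3 higher and 12 not called, and the median change was 0.06. The shares over all genes were 18.0% lower and 18.9% higher, so nothing particular to the region is read from these counts. KIFC1, a mitotic kinesin, fell by 1.95 ± 0.18 (adjusted p = 9.49e-05 in limma). HSD17B8, PFDN6, WDR46 and DAXX also fell, with log2 changes of -0.77, -0.75, -0.56 and -0.39 (0.0312, 0.00272, 0.00472 and 0.0201). TAPBP and RGL2 rose by 1.07 and 0.40 (0.00437 and 0.0402), and B3GALT4 was counted higher but was detected on knockdown arrays only, so it had to differ to pass the filter. It was at least 1.34-fold brighter there on the normexp scale with an offset of 16. TAP1, PSMB8, PSMB9 and BRD2, which lie in the region itself, gave -0.15, 0.08, -0.22 and 0.23, none called. With median scaling 1 gene of the list was called, a fall. HSD17B8, RGL2 and DAXX missed the threshold without some single arrays: HSD17B8 without control array 2 (0.108) or 3 (0.107) or knockdown array 1 (0.0771) or 3 (0.0649), DAXX without control array 3 (0.076) or knockdown array 2 (0.0682), and RGL2 without any array other than knockdown array 1 (0.0723 to 0.128). KIFC1 fell 2.40-fold in place of 3.85-fold without background correction.

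Of 13 ligands that accompany antigen presentation, 7 had a kept probe, 2 lower, 1 higher and 4 not called, with a median change of 0.20. Among all genes 18.0% were lower and 18.9% higher. CD70 and CD58, partners of the T-cell molecules CD27 and CD2, fell by 1.72 and 1.42 (adjusted p = 0.000125 and 4.99e-05 in limma). TNFSF4, the OX40 ligand, rose by 0.85 (0.00218), and was not called with median scaling (0.057). Without background correction the fall of CD70 was 1.57-fold in place of 3.30-fold. CD276 gave 0.38 and was not called.

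Markers of leukocytes were examined because these cells carry class II at high levels. Of 18 listed, 13 had no kept probe named, among them PTPRC, MS4A1, CSF1R and ITGAX. Of the 5 measured, 1 was lower, 1 higher and 3 not called, beside 18.0% lower and 18.9% higher over all genes. CD83 fell by 0.97 (adjusted p = 0.00126 in limma), CD14 rose by 0.71 (0.00284), and both calls ended with median scaling (0.0841 and 0.152). The markers CD79A, CD79B and CD68 gave -0.24, 0.14 and -0.04, none called. Of 12 epithelial and renal markers 7 had a kept probe, 3 lower, 0 higher and 4 not called, beside 18.0% lower and 18.9% higher over all genes. KRT19, KRT8 and VIM were lower, with log2 changes of -3.05, -1.07 and -0.45 (adjusted p = 2.03e-06, 0.000304 and 0.0172 in limma). VIM missed the threshold without knockdown array 2 (0.0661) and with median scaling (0.223). KRT18 gave -0.36 on its brightest probe, called with the replicate block only (0.0476), and -0.53 on the other, which was called (0.028). The renal factor PAX8 gave 0.28, EPCAM 0.28 and KRT7 0.04, none called. CDH1 and PAX2 had no kept probe named. The part of these shifts in the class II result was not tested, and in bulk RNA fewer expressing cells and less RNA per cell cannot be told apart.

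The probes most like the brightest HLA-DRA probe over the 6 arrays were of HPRT1, ABI3, WWC1, APOBEC3B and FAM241B, with Pearson r of 0.999, 0.999, 0.999, 0.999 and 0.999. The most opposite were LTBP3, DEF8, LY6E, CES2 and SLC22A17, at -0.9995, -0.999, -0.999, -0.998 and -0.998. LTBP3 was detected on knockdown arrays only and so had to differ to pass the filter, which makes a strongly opposite r nearly implied. All these correlations are descriptions over 6 arrays in 2 arms. As many as 1862 other kept probes had r of 0.95 or more, while 1251 were as strongly opposite. Within the family, every probe called lower other than HLA-DRB3 had r of 0.978 or more. A high r is nearly implied by such a call, and HLA-DRB1 and HLA-DRB5 also had to differ to pass the filter. Nothing about shared regulation is read from these values. HLA-DRB3 had 0.811, HLA-DMA 0.767, the uncalled HLA-DRB4 probe 0.0848 and HLA-DOA -0.421.

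As a check of the labels, YAP1 gave 8.47, 8.26 and 8.47 in controls and 7.33, 6.77 and 6.56 in knockdown cells, a log2 change of -1.51 ± 0.19 (adjusted p = 0.000607 in limma). No kept probe was named for WWTR1, the TAZ gene, so its knockdown was not checked. Between 19674 and 20971 probes were detected per array. Arrays correlated at 0.981 or more within an arm and at 0.962 or less between arms, across probes, which are not independent replicates.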

How the data were processed

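SN12C total RNA was labelled with biotin, per the labels' protocols, and measured on 6 bead arrays. The deposited intensity table holds unnormalized probe intensity with detection p-values, per the file headers. It had 48202 lines, 887 of them without an identifier, which were left out. A second deposited table holds log2 values of the authors for 20348 probes, whose medians lie between 6.257 and 6.262. The submitters' processing notes name limma, with no version. Its probes were exactly those detected on at least 3 arrays, and its values differed from those computed here by at most 0.0238, so the scale is log2, uncentred. For the arrays a genome build is not given in the sources used here.

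Intensities were corrected by normexp with detection p-values (offset 16), then quantile normalization and log2 followed (neqc, limma 3.58.1, R 4.3.3). Knockdown was compared with control by lmFit and eBayes, two-sided, with a single group term and Benjamini-Hochberg adjustment over all kept probes. The fit was tested on simulated data. Symbols came from the platform annotation: 15493 kept probes had 1 symbol, 4 several and 4851 none; 15484 matched a current gene table through Entrez identifiers and 0 changed. Genes with several probes were represented in lists by the probe with the highest mean. The alternatives tried were other background corrections and offsets, median scaling, other detection filters, another variance model, the deposited log2 values, the replicate block, 1 probe per gene and leaving out single arrays. With 3 arrays per arm, precision is limited by their number.

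Genes named are every kept member and RFX probe, up to 4 genes per list with the largest changes, any gene behind a count of 5 or fewer, and the 5 genes most like and most opposite to HLA-DRA. A few list members beyond this rule (such as HLA-B, HLA-C, B2M, NLRC5, IFNGR1, PRDM1 and PSMB9) were named after their values were seen. Members and lists were chosen with earlier results of these data known.

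Arrays share the numbers 1 to 3 in the labels. Deviations from the arm mean correlated at 0.629, 0.252 and 0.464 between arrays of the same number, all above 0.1, the limit for treating the numbers as pairs, although knockdown array 2 correlated better with control array 3 (0.377). The reported calls come from the fit without this block, and the blocked value is given where it changes a call.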

Additional observations from a re-analysis of the deposited data

How the results depend on the processing

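The 10 calls among the class II and CD74 probes numbered 9 with median scaling and with no detection filter, 11 with the replicate number as a block, 8 with 1 probe per gene and 6 where detection on all 6 arrays was required, which tests 8 of the 13 probes. Leaving out 1 array gave 7 to 10. HLA-DRB1 and HLA-DRB5 leave the filter without any 1 control array. With both arrays numbered 1 left out, a setting chosen after seeing the data, 8 were called. Over all kept probes 6576 were called, 1555 with median scaling (57.8% of them lower, against 51.1%), 8271 with the block and 4409 to 5817 without 1 array. Of the regulators 5 were called, 0 with median scaling, 6 with the block and 3 to 4 without 1 array; the cause was not tested. Signs turned in probes that were not called in the reported fit. Over the fits that leave out 1 array, HLA-DRB4 probe ILMN_1679617 ranged from -0.13 to 0.11, RFXANK probe ILMN_2399497 from -0.14 to 0.14, RFXANK probe ILMN_1804113 from -0.20 to 0.014 and CREB1 from -0.012 to 0.92. The RFXANK probes gave 0.081 and 0.046 with both arrays numbered 1 left out. Among the named genes, the replicate block changed the call of HLA-DMA, CREB1, RFX2 and KRT18 (adjusted p = 0.0476) and of no other. HLA-DRA, HLA-DPA1, CD74, HLA-DMB and the brighter HLA-DRB4 probe kept their calls under every alternative that could be run for them. Signal over background limits how well the size of each fall is known: without background correction the folds were smaller, as given above.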
